A study of Mus musculus with 8 samples.

Results

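The set described here is 10 enzymes chosen by name, of 27249 genes in the deposited expression table. They are Phgdh, Psat1 and Psph of serine synthesis, the serine hydroxymethyltransferases Shmt1 and Shmt2, the mitochondrial folate enzymes Mthfd2, Mthfd1l and Aldh1l2, the asparagine synthetase Asns, and the transsulfuration enzyme Cth. Each symbol matched 1 row, and all 10 passed the filter on low values that left 22575 genes for testing. Polyadenylated RNA was sequenced in 8 libraries from primary smooth muscle cells of mouse vessels, which give the artery wall its tone. The groups, with 2 libraries each, were THOC5-overexpressing cells in osteogenic medium, THOC5-overexpressing cells in growth medium, GFP-overexpressing cells in osteogenic medium, and GFP-overexpressing cells in growth medium. The genotype of both GFP groups is labelled WT. THOC5 is a subunit of the THO complex, which couples transcription to mRNA export. The series design gives the osteogenic treatment as inorganic phosphate (Pi) for 6 days. The sources used here do not give the vectors, the mouse strain or whether replicates were separate cultures, so p-values measure the spread between libraries, which may be technical.

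Serine is made from the glycolytic intermediate 3-phosphoglycerate by PHGDH, PSAT1 and PSPH in that order. SHMT1 in the cytosol and SHMT2 in mitochondria pass a carbon of serine to tetrahydrofolate, and the mitochondrial enzymes MTHFD2 and MTHFD1L carry that carbon on to formate, which serves purine and thymidylate synthesis. Serine also meets homocysteine in the transsulfuration route, where CTH releases cysteine for glutathione. Phgdh, Psat1, Psph, Shmt2, Mthfd2, Aldh1l2, Asns and Cth are known targets of the transcription factor ATF4 in several cell types.

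The promoter of Asns is shown because it carries a match to the core of the element through which ATF4 dimers are known to act, and those of Mthfd2 and Mthfd1l because these partners in 1 route were ordered oppositely across the libraries. The windows run from 250 bases before to 50 after the RefSeq start site on GRCm38.p6, 5′ to 3′ on the gene's strand, with the match in capitals.
Asns (chr6:7693160-7693459, minus strand): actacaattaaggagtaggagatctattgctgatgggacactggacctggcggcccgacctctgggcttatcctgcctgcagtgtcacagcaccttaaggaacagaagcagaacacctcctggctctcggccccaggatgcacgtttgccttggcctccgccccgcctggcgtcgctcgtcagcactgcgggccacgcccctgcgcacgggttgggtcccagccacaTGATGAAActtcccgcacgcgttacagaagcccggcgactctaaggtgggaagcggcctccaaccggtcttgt
Mthfd2 (chr6:83317555-83317854, minus strand): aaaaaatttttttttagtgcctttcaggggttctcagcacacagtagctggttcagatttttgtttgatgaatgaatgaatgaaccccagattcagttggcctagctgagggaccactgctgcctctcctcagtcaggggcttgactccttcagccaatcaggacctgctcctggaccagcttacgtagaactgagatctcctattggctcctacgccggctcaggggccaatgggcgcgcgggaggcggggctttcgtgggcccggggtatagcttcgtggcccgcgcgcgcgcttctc
Mthfd1l (chr10:3972825-3973124, plus strand): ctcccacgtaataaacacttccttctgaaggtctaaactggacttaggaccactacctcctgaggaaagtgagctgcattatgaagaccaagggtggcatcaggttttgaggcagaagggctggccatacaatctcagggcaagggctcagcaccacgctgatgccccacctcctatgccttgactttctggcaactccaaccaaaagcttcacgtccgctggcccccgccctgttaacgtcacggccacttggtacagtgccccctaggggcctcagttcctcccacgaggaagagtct
Windows were found for 8 of the 10 enzymes, 9 windows in all since Psat1 has 2, and none were matched for Aldh1l2 and Cth. Of the 9, the Asns window held TGATGNAA on its plus strand, with the first base 23 bases before the start site. TGATGNAA occurs on either strand in 3.97% of 32851 promoter windows of this length, the core of the antioxidant response element in 14.3%, the cyclic AMP element TGACGTCA in 1.79% and the E-box CACGTG in 7.15%. No other match to these motifs was found in the 9 windows.

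Values are normalized counts, the gene's reads divided by the authors' size factor for the library. Recovered reads ranged from 7058681 to 10581042 per library. Thoc5, read first as a check of the labels, stood at 1780.2 and 1937 normalized counts in THOC5 osteogenic libraries, 2155 and 1406 in THOC5 growth libraries, 649.5 and 615 in GFP osteogenic libraries, and 458 and 471 in GFP growth libraries. The summed level of 7 smooth muscle markers was 27887 to 30119 in THOC5 osteogenic, 34064 to 34610 in THOC5 growth, 13654 to 15667 in GFP osteogenic, and 27340 to 31774 in GFP growth libraries, so the GFP osteogenic libraries stood lowest. Fibroblast markers were likewise lowest there, with 4703 to 6564 against 14673 to 19315 in the other 6. Macrophage markers summed to 311 to 326 in GFP osteogenic libraries and 188 to 267 in the others, the 3 endothelial markers analysed to 43.2 or less, and the 1 erythroid marker analysed, Hbb-bs, to 0.965 or less. Cdh5, Hbb-bt, Hba-a1 and Hba-a2 were not analysed here. The part of these levels in the results on enzymes was not tested, and in bulk RNA a change in the kinds of cell present and a change in RNA per cell cannot be told apart.

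Most of the enzymes were higher in GFP cells in osteogenic medium than in growth medium, and most were lower in THOC5 cells than in GFP cells in osteogenic medium. In GFP cells 8 of the 10 were higher in osteogenic than in growth medium at a limma adjusted p under 0.05, against 10.3% of all genes tested, with a median log2 change of 1.32 against 0 over all genes. Both osteogenic libraries stood above both growth libraries for 9 enzymes, as for 27.7% of all genes, and below them for Mthfd1l, as for 28.9%. In osteogenic medium 9 of the 10 were lower in THOC5 than in GFP cells, against 10.7% of all genes, with a median of -1.84. Both THOC5 osteogenic libraries stood below both GFP osteogenic libraries for 9 enzymes, as for 28.6% of all genes, and above them for Mthfd1l, as for 30.8%. The interaction, which is the osteogenic response of THOC5 cells minus that of GFP cells, was negative and past the threshold for 7 of the 10, against 3.92% of all genes. None passed for THOC5 osteogenic against THOC5 growth libraries, where 0.54% of all genes did in either direction, or for THOC5 growth against GFP growth libraries, where 0.00443% did. The comparisons share groups, so they do not stand independently of each other. Mthfd1l was the exception in direction, with values set against those of the other 9.

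**Figure D1:**
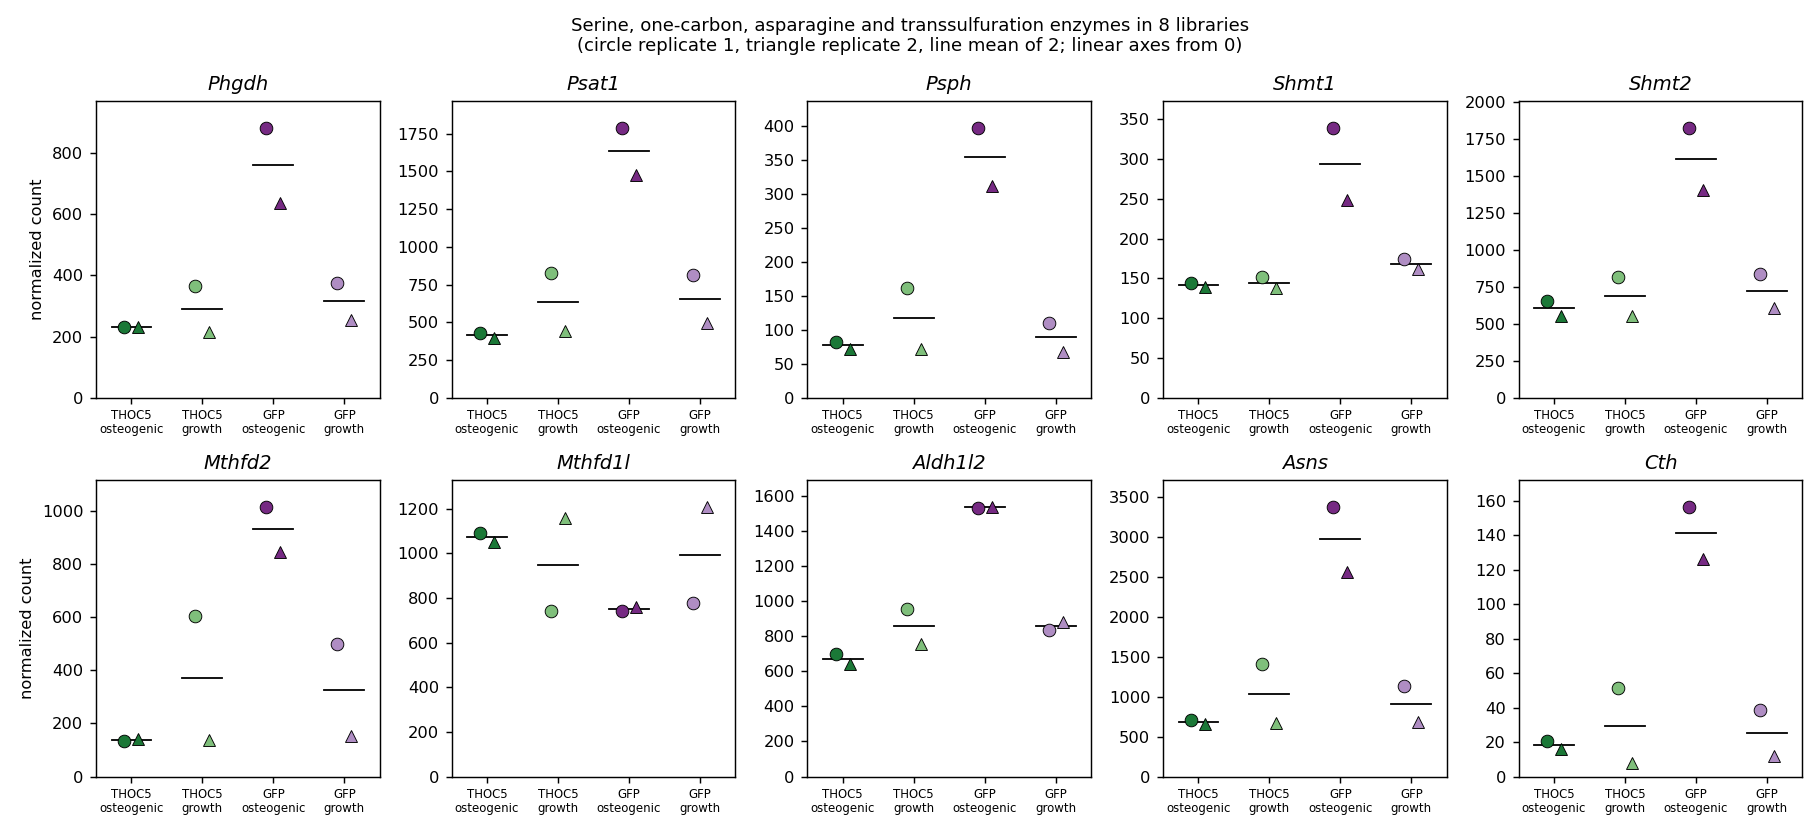
Normalized count of each enzyme in each library, 1 panel per gene on a linear axis from 0. Circles are replicate 1, triangles replicate 2 and lines the mean of 2. Both GFP osteogenic libraries stand above both GFP growth libraries for 9 of 10 enzymes, as for 27.7% of all genes. In GFP osteogenic libraries Asns is at 3381 and 2561, and Mthfd1l is at 742 and 761.

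Phgdh, the dehydrogenase that opens serine synthesis (chromosome 3, 98313170 to 98339990, GRCm38), had 231 and 231 normalized counts in THOC5 osteogenic libraries, 367 and 216 in THOC5 growth libraries, 883 and 639 in GFP osteogenic libraries, and 375 and 255 in GFP growth libraries. Both GFP osteogenic libraries exceeded all 6 others, and the THOC5 osteogenic pair lay inside the range of the THOC5 growth pair. Phgdh was 2.42-fold higher in GFP osteogenic than in GFP growth libraries (log2 1.28 ± 0.24 SE, n = 2 each, limma adjusted p = 0.00328), and 3.24-fold lower in THOC5 osteogenic than in GFP osteogenic libraries (log2 -1.70 ± 0.24, adjusted p = 5.18e-04). The pseudogene Phgdh-ps1 averaged 0.573 normalized counts.

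Psat1, the aminotransferase of the next step (chromosome 19, 15904678 to 15947337), had 429.8 and 396 normalized counts in THOC5 osteogenic libraries, 829 and 442 in THOC5 growth libraries, 1789 and 1477 in GFP osteogenic libraries, and 816 and 494.5 in GFP growth libraries. The THOC5 osteogenic libraries were below both THOC5 growth libraries, the nearer of which was replicate 2. Psat1 was 2.56-fold higher in GFP osteogenic than in GFP growth libraries (log2 1.35 ± 0.27, limma adjusted p = 0.00413) and 3.93-fold lower in THOC5 osteogenic than in GFP osteogenic libraries (log2 -1.98 ± 0.27, adjusted p = 3.70e-04). Psph, the phosphatase that releases serine (chromosome 5, 129765558 to 129787449), had 81.8 and 72.3 in THOC5 osteogenic libraries, 162 and 71.6 in THOC5 growth libraries, 398 and 312 in GFP osteogenic libraries, and 111 and 67.8 in GFP growth libraries. Only THOC5 growth replicate 1 and GFP growth replicate 1 exceeded 100 outside the GFP osteogenic pair. Psph was 4.03-fold higher in GFP osteogenic than in GFP growth libraries (log2 2.01 ± 0.33, limma adjusted p = 0.00133) and 4.54-fold lower in THOC5 osteogenic than in GFP osteogenic libraries (log2 -2.18 ± 0.33, adjusted p = 7.18e-04). The kit does not mark strand, and Psph shares 452 exonic bases with Cct6a on the other strand, so their reads cannot be separated there. Cct6a, a chaperonin subunit, was itself higher in GFP osteogenic than in GFP growth libraries (log2 0.71) and lower in THOC5 osteogenic than in GFP osteogenic libraries (log2 -0.67).

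Both serine hydroxymethyltransferases, which differ in compartment, passed in the same comparisons. Shmt1 (chromosome 11, 60788104 to 60811718) had 144 and 139 normalized counts in THOC5 osteogenic libraries, 152 and 138 in THOC5 growth libraries, 339 and 249 in GFP osteogenic libraries, and 175 and 162 in GFP growth libraries. Outside the GFP osteogenic pair its values spanned 138 to 175. Shmt1 was 1.72-fold higher in GFP osteogenic than in GFP growth libraries (log2 0.78 ± 0.15, limma adjusted p = 0.00363) and 2.05-fold lower in THOC5 osteogenic than in GFP osteogenic libraries (log2 -1.03 ± 0.15, adjusted p = 6.01e-04). It shares 184 exonic bases with Smcr8 on the other strand, which changed in the same directions (log2 0.56 and -0.44). Shmt2 (chromosome 10, 127517123 to 127522444) had 657 and 554 in THOC5 osteogenic libraries, 821 and 553 in THOC5 growth libraries, 1827 and 1406 in GFP osteogenic libraries, and 838 and 605 in GFP growth libraries. The 2 THOC5 groups overlapped, and both GFP osteogenic libraries lay above every other library. Shmt2 was 2.25-fold higher in GFP osteogenic than in GFP growth libraries (log2 1.17 ± 0.20, limma adjusted p = 0.00177) and 2.65-fold lower in THOC5 osteogenic than in GFP osteogenic libraries (log2 -1.41 ± 0.20, adjusted p = 5.07e-04). Ndufa4l2, with which it shares 32 exonic bases, went the opposite way (log2 -2.24 and 2.43).

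The mitochondrial folate enzymes did not move together. Mthfd2, the dehydrogenase and cyclohydrolase that is low in most adult tissues (chromosome 6, 83305691 to 83325908), had 133 and 139.9 normalized counts in THOC5 osteogenic libraries, 604 and 137 in THOC5 growth libraries, 1015 and 845 in GFP osteogenic libraries, and 499.9 and 152 in GFP growth libraries. Replicate 1 of each growth group stood far above its partner, and replicate 2 of each growth group lay near the THOC5 osteogenic level. With that spread the difference between GFP osteogenic and GFP growth libraries missed the threshold (log2 1.75 ± 0.59, limma adjusted p = 0.0599). It was 3.35-fold on the scale of log2 of the value plus 1. The groups did not overlap, and their mean normalized counts were 930 and 326. On recovered reads this difference passed in edgeR's quasi-likelihood test (adjusted p = 0.0165) and did not pass in DESeq2 (adjusted p = 0.210). Mthfd2 was 6.76-fold lower in THOC5 osteogenic than in GFP osteogenic libraries (log2 -2.76 ± 0.59, limma adjusted p = 0.00648), a call that was lost without any 1 of those 4 libraries. Gm43890, an unclassified transcript within the Mthfd2 locus on the same strand, averaged 9.94 normalized counts.

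Mthfd1l, the mitochondrial formyltetrahydrofolate synthetase that releases formate (chromosome 10, 3973118 to 4167081), had 1091 and 1051 normalized counts in THOC5 osteogenic libraries, 742 and 1157 in THOC5 growth libraries, 742 and 761 in GFP osteogenic libraries, and 776 and 1209.7 in GFP growth libraries. The GFP osteogenic pair stood below both GFP growth libraries and the THOC5 osteogenic pair, and replicate 1 of each growth group was the lower one. The changes did not pass the test, at log2 -0.37 ± 0.21 for GFP osteogenic over GFP growth libraries (limma adjusted p = 0.257) and log2 0.51 ± 0.21 for THOC5 osteogenic over GFP osteogenic libraries (adjusted p = 0.110). The difference between the osteogenic groups passed in edgeR (adjusted p = 0.0473) and did not pass in DESeq2 (adjusted p = 0.221). Aldh1l2, the mitochondrial formyltetrahydrofolate dehydrogenase that yields NADPH (chromosome 10, 83487450 to 83534140), had 699 and 641 in THOC5 osteogenic libraries, 957 and 754 in THOC5 growth libraries, 1530.0 and 1538 in GFP osteogenic libraries, and 832 and 883 in GFP growth libraries. The GFP osteogenic pair agreed closely and stood above all others. Aldh1l2 was 1.79-fold higher in GFP osteogenic than in GFP growth libraries (log2 0.84 ± 0.11, limma adjusted p = 3.48e-04) and 2.29-fold lower in THOC5 osteogenic than in GFP osteogenic libraries (log2 -1.20 ± 0.11, adjusted p = 3.15e-05). It shares 1056 exonic bases with D10Wsu102e on the other strand, which did not pass in either comparison (log2 -0.13 and -0.08).

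Asns, which makes asparagine from aspartate and glutamine and is a classical reporter of amino acid shortage (chromosome 6, 7675169 to 7693254), had 704 and 652 normalized counts in THOC5 osteogenic libraries, 1411 and 669 in THOC5 growth libraries, 3381 and 2561 in GFP osteogenic libraries, and 1134 and 683 in GFP growth libraries. Replicate 2 of both growth groups lay near the THOC5 osteogenic level. Asns was 3.34-fold higher in GFP osteogenic than in GFP growth libraries (log2 1.74 ± 0.30, limma adjusted p = 0.00191) and 4.34-fold lower in THOC5 osteogenic than in GFP osteogenic libraries (log2 -2.12 ± 0.30, adjusted p = 5.12e-04). This is the gene whose promoter, printed above, holds the TGATGNAA match.

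Cth, the cystathionine gamma-lyase that yields cysteine (chromosome 3, 157894248 to 157925077), had 20.9 and 15.96 normalized counts in THOC5 osteogenic libraries, 51.2 and 7.64 in THOC5 growth libraries, 157 and 126 in GFP osteogenic libraries, and 38.5 and 12.0 in GFP growth libraries. The lowest value rested on 8 reads, and the growth replicates differed more than for any other enzyme in THOC5 cells. Cth was 6.26-fold higher in GFP osteogenic than in GFP growth libraries on the scale of log2 of the value plus 1 (log2 2.65 ± 0.69, limma adjusted p = 0.0194) and 7.34-fold lower in THOC5 osteogenic than in GFP osteogenic libraries (log2 -2.88 ± 0.69, adjusted p = 0.0119). Both calls were lost when 1 of several libraries was left out, among them either THOC5 osteogenic library.

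The interaction tested whether the medium response differed between the 2 kinds of cell. It passed for Psph (log2 -2.49 ± 0.46, limma adjusted p = 0.00792), Asns (-2.26 ± 0.42, adjusted p = 0.00850), Psat1 (-1.91 ± 0.38, adjusted p = 0.0106) and Phgdh (-1.56 ± 0.34, adjusted p = 0.0169). It also passed for Shmt2 (-1.33 ± 0.28, limma adjusted p = 0.0146), Aldh1l2 (-1.18 ± 0.16, adjusted p = 0.00152) and Shmt1 (-0.81 ± 0.21, adjusted p = 0.0369). It did not pass for Mthfd2 (-2.82 ± 0.84, limma adjusted p = 0.0600), Cth (-2.79 ± 0.98, adjusted p = 0.108) or Mthfd1l (0.57 ± 0.29, adjusted p = 0.272). Calls on the medium response depended on single libraries. Without GFP osteogenic replicate 1 or without GFP growth replicate 2, most enzyme calls of the GFP response were lost. Interaction calls on the enzymes were all lost without either GFP growth library. Most were lost without GFP osteogenic replicate 1 or either THOC5 osteogenic library, and some without THOC5 growth replicate 1. Calls over all genes also fell in each of these fits. On leaving out each library in turn, the median log2 change of the 10 ran from 0.96 to 1.63 in the GFP response. In the interaction it ran from -2.15 to -1.32. With every gene with any value above 0 kept, the interaction passed for 1 enzyme. It passed there for 4.12% of all genes in either direction, against 9.22% in the main fit.

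**Figure D2:**
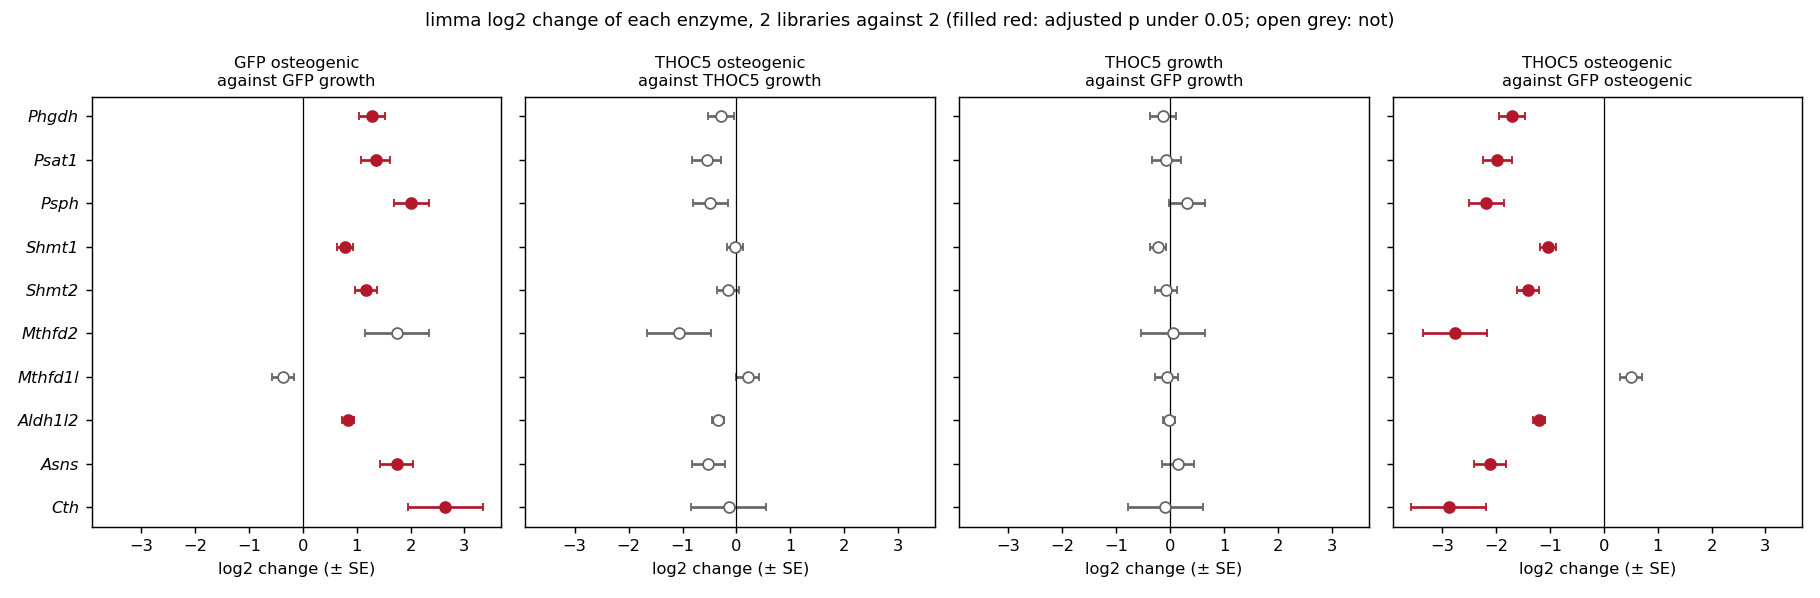
limma log2 change of each enzyme with its SE in 4 comparisons of 2 libraries against 2. Filled red points have an adjusted p under 0.05. The first panel holds 8 such points to the right of 0, the last 9 to the left, and the middle panels none.

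In THOC5 cells no enzyme passed the test for osteogenic against growth medium. Log2 changes for THOC5 osteogenic over THOC5 growth libraries ran from -1.07 for Mthfd2 to 0.21 for Mthfd1l, with a median of -0.31 against -0.01 over all genes. None of the 10 passed in limma, edgeR or DESeq2, and 1 of 10, Aldh1l2, had an unadjusted p under 0.05 (log2 -0.34 ± 0.11, limma adjusted p = 0.626). The groups overlapped for 8 enzymes, and the THOC5 osteogenic pair was lower without overlap for Psat1 and Aldh1l2, against 19.7% of all genes. Most of the negative signs rested on 1 library, since 7 of the 10 signs changed without THOC5 growth replicate 1. Between THOC5 growth and GFP growth libraries the log2 changes ran from -0.22 to 0.31 with a median of -0.07, which spanned -0.38 to 0.31 on leaving out 1 library, and 4 or 5 of the 10 signs changed on leaving out any growth library. The groups overlapped for 9 enzymes. Shmt1 was the other one, lower without overlap in THOC5 growth libraries, against 16.5% of all genes. None of the 10 passed in limma, edgeR or DESeq2 for that comparison, and 0 had an unadjusted p under 0.05.

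In both growth groups replicate 1 had more of most of these transcripts than replicate 2, a gap that the results on growth medium rest on. The median log2 ratio of replicate 1 over replicate 2 was 0.11 in THOC5 osteogenic, 0.83 in THOC5 growth, 0.33 in GFP osteogenic and 0.63 in GFP growth libraries. For Mthfd2 the ratio was 4.43 in THOC5 growth and 3.30 in GFP growth libraries, against 0.949 in THOC5 osteogenic and 1.20 in GFP osteogenic libraries. For Cth it was 6.70 in THOC5 growth and 3.21 in GFP growth libraries. Mthfd1l went the other way, with 0.641 in THOC5 growth and 0.642 in GFP growth libraries. In THOC5 growth libraries 4 of the 10 enzymes had a log2 ratio of 1 or more, as did 0.197% of the 10655 genes with a mean of at least 50 normalized counts, and in GFP growth libraries 2 of the 10 did, as did 0.122% of those genes. The median absolute log2 ratio of those genes was 0.13 in either growth group. Cth, among the enzymes at 1 or more in both groups, rested on few reads, with 53 and 8 in THOC5 growth and 33 and 9 in GFP growth libraries. What set the growth replicates apart was not tested. The labels give no culture date, passage or batch.

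**Figure D3:**
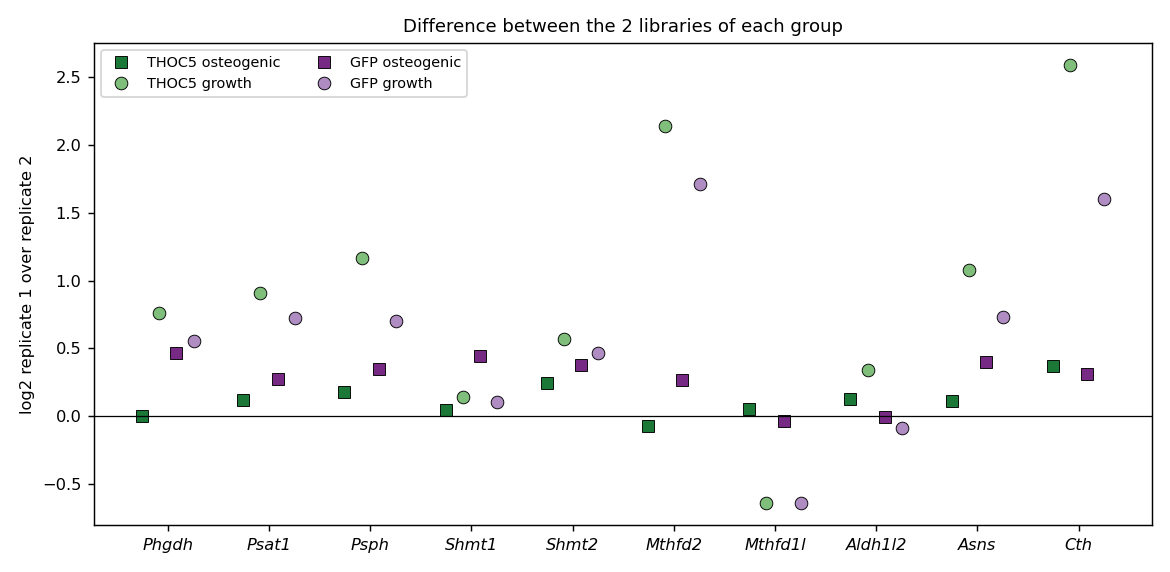
Log2 of replicate 1 over replicate 2 for each enzyme within each group. Squares are osteogenic and circles growth libraries. Growth libraries reach 2.59 for Cth and 2.14 for Mthfd2, and both lie at -0.64 for Mthfd1l.

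Compared per length, Asns had the highest mean over the 8 libraries, 512 normalized counts per kb of exon, which the GFP osteogenic pair carried at 1236 and 936. It stood highest in 6 of 8 libraries, while Mthfd1l exceeded it in replicate 2 of both growth groups, with 261 against 244 in THOC5 growth and 273 against 249.8 in GFP growth libraries. Shmt2 followed at 292, Mthfd1l at 212, Psat1 at 196, Phgdh at 161, Aldh1l2 at 130.5, Mthfd2 at 126, Shmt1 at 48.2, Psph at 36.9 and Cth at 19.2 normalized counts per kb. Asns stood above Shmt2, Psat1 above Phgdh, Mthfd2 above Shmt1 and Psph above Cth in 8 of 8 libraries. Other neighbours changed places: Shmt2 exceeded Mthfd1l, Mthfd1l exceeded Psat1 and Aldh1l2 exceeded Mthfd2 in 4 of 8 libraries each, Phgdh exceeded Aldh1l2 in 5 and Shmt1 exceeded Psph in 6. The ratio of Mthfd2 to Mthfd1l per kb was 0.155 and 0.169 in THOC5 osteogenic libraries, 1.04 and 0.150 in THOC5 growth libraries, 1.74 and 1.41 in GFP osteogenic libraries, and 0.819 and 0.159 in GFP growth libraries. Per kb, Mthfd2 thus stood above its partner in both GFP osteogenic libraries and in THOC5 growth replicate 1, and below it in the other 5. The lengths merge all annotated exons of a gene, and the lengths of the transcripts present were not measured. Ratios near 1, such as 1.04 and 0.819, and the order of genes per kb depend on that choice. The ratio of the mitochondrial Shmt2 to the cytosolic Shmt1 lay between 4.66 and 7.06. Summed over the 10 enzymes, the libraries held 4191 and 3893 normalized counts in THOC5 osteogenic, 6097 and 4144 in THOC5 growth, 12062 and 9913 in GFP osteogenic, and 5595 and 4524 in GFP growth.

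Across the 8 libraries, which share their medium and cell groups, Pearson's r of each enzyme with the mean of the other 9 on the centred log2 scale was 0.997 for Asns, 0.992 for Phgdh, 0.991 for Psat1, 0.987 for Shmt2, 0.986 for Psph, 0.960 for Cth, 0.937 for Mthfd2 and Aldh1l2, 0.920 for Shmt1 and -0.870 for Mthfd1l. Outside the set the 5 genes most like its mean, among 10645 genes with a mean of at least 50, were the transfer RNA synthetase genes Iars (r = 0.998) and Gars (0.997), the branched-chain aminotransferase gene Bcat1 (0.998), the cytochrome b5 reductase gene Cyb5r1 (0.997) and Wdr43 (0.996). Bcat1 had 253 and 253 normalized counts in THOC5 osteogenic libraries, 476 and 221 in THOC5 growth libraries, 1232 and 895 in GFP osteogenic libraries, and 438 and 274 in GFP growth libraries. Replicate 1 exceeded replicate 2 in both growth groups for Bcat1 as well. These likenesses are descriptions over 8 libraries in which 2 stand apart.

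Neighbouring pathways were followed in lists, for which a gene counts as higher or lower at a limma adjusted p under 0.05. Of 17 genes of serine and glycine entry and use, 5 were higher and 4 lower in GFP osteogenic than in GFP growth libraries, with a median log2 of -0.10, against 10.3% higher and 10.6% lower among all genes. The lower ones included Sfxn3, a mitochondrial serine carrier, which had 382 and 436 normalized counts in GFP osteogenic libraries and 901 and 841 in GFP growth libraries (log2 -1.09 ± 0.09, limma adjusted p = 2.12e-05), and the neutral amino acid transporter Slc38a2 (log2 -0.74 ± 0.09, adjusted p = 2.46e-04). Slc1a5, another neutral amino acid carrier, was higher (log2 0.55 ± 0.11, limma adjusted p = 0.00437), as was Dld, a lipoamide dehydrogenase not confined to the glycine cleavage system (log2 0.68 ± 0.11, adjusted p = 0.00153). In THOC5 osteogenic against GFP osteogenic libraries 4 of the 17 were higher and 5 lower, against 11.3% and 10.7% of all genes. Sfxn3 was 2.05-fold higher there (log2 1.04 ± 0.09, limma adjusted p = 2.50e-05).

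Of 18 other folate enzymes and carriers, 1 was higher and 2 lower in GFP osteogenic than in GFP growth libraries, shares near the 10.3% and 10.6% of all genes. The sarcosine dehydrogenase gene Sardh was among the lower ones (log2 -0.83 ± 0.12, limma adjusted p = 5.10e-04). In THOC5 osteogenic against GFP osteogenic libraries 3 were higher and 1 lower, and Aldh1l1, the cytosolic counterpart of Aldh1l2, had 47.3 and 69.5 normalized counts in THOC5 osteogenic libraries and 16.4 and 31.3 in GFP osteogenic libraries (log2 1.30 ± 0.31, limma adjusted p = 0.0109). The cytosolic form was higher in the THOC5 group in which the mitochondrial form was lower. Of 11 genes of the methionine cycle, 2 were higher and 1 lower in GFP osteogenic than in GFP growth libraries, and 1 was higher and 4 lower in THOC5 osteogenic than in GFP osteogenic libraries. Over all genes the shares were again 10.3% and 10.6% for the first comparison, and 11.3% and 10.7% for the second. Amd1, whose reads may be shared with its near-identical copy Amd2 and which encodes the decarboxylase that leads S-adenosylmethionine to polyamines, was higher in GFP osteogenic libraries (log2 0.90 ± 0.22, limma adjusted p = 0.0138).

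Of 15 genes of transsulfuration, cysteine and glutathione, 6 were higher and 1 lower in GFP osteogenic than in GFP growth libraries, with a median log2 of 0.45, against 10.3% higher and 10.6% lower among all genes. In THOC5 osteogenic against GFP osteogenic libraries 1 was higher and 6 lower, against 11.3% and 10.7%. Slc7a11, the cystine importer, had 75.4 and 60.1 normalized counts in THOC5 osteogenic libraries, 155 and 59.2 in THOC5 growth libraries, 2199 and 1735 in GFP osteogenic libraries, and 159 and 101 in GFP growth libraries. It was 15.3-fold higher in GFP osteogenic than in GFP growth libraries (log2 3.94 ± 0.35, limma adjusted p = 3.05e-05). The subunits of glutamate-cysteine ligase, which opens glutathione synthesis, were higher too, Gclm by log2 2.39 ± 0.09 (limma adjusted p = 9.06e-07) and Gclc by log2 1.63 ± 0.10 (adjusted p = 3.02e-06). Csad, which draws cysteine products into taurine, was lower (log2 -1.12 ± 0.13, limma adjusted p = 1.99e-04).

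Purine synthesis consumes formyl units. Of its 13 genes 6 were higher and 1 lower in GFP osteogenic than in GFP growth libraries, with a median log2 of 0.23, and 1 was higher and 6 lower in THOC5 osteogenic than in GFP osteogenic libraries. For this list and the next, the shares of all genes were 10.3% higher and 10.6% lower in the first comparison and 11.3% and 10.7% in the second. Atic, which takes up a formyl group late in the route, had 1685 and 1340 normalized counts in GFP osteogenic libraries and 949.8 and 925 in GFP growth libraries (log2 0.68 ± 0.11, limma adjusted p = 0.00121). The amidotransferase Ppat that opens the route was higher by log2 0.64 ± 0.16 (limma adjusted p = 0.0145). Of 11 genes of asparagine, aspartate, glutamine and proline, 4 were higher and 3 lower in GFP osteogenic than in GFP growth libraries, and 2 were higher and 6 lower in THOC5 osteogenic than in GFP osteogenic libraries. The proline synthesis reductase Pycr1 (log2 0.74 ± 0.16, limma adjusted p = 0.00717) and the aspartate aminotransferase Got1 (log2 0.99 ± 0.21, adjusted p = 0.00563) were higher, and the glutamine synthetase Glul was lower (log2 -0.41 ± 0.10, adjusted p = 0.0112), a call lost with scaling to library totals.

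The ATF4 list held 16 genes, chosen as Atf4 and its inducers or partners, among them Eif2ak1 to Eif2ak4, Nfe2l2 and Myc. It was not built as a list of ATF4 targets. Of the 16 genes, 12 were higher and 0 lower in GFP osteogenic than in GFP growth libraries, with a median log2 of 0.87. In THOC5 osteogenic against GFP osteogenic libraries 2 were higher and 10 lower, and the interaction passed for 8, all negative. Of all genes 10.3% were higher and 10.6% lower in the GFP response, 11.3% higher and 10.7% lower between the osteogenic groups, and 3.92% passed with a negative interaction. Calls of this list mostly shrank on leaving out a library of the groups compared, and those of the interaction were all lost in several such fits. Calls over all genes fell in these fits too. On leaving out each library in turn, the median log2 of the list ran from 0.59 to 1.11 in the GFP response. It ran from -1.15 to -0.96 between the osteogenic groups and from -1.34 to -0.70 in the interaction. The 8 became 5 in DESeq2 or with a pseudocount of 0.5, where 8.53% and 8.79% of all genes passed the interaction in either direction. They became 1 with every gene above 0 kept, where 4.12% of all genes passed, against 9.22% in the main fit. Atf4 had 1558 and 1965 normalized counts in THOC5 osteogenic libraries, 2863 and 1424 in THOC5 growth libraries, 4715 and 4072 in GFP osteogenic libraries, and 2827 and 1522 in GFP growth libraries. Like most of the enzymes it was highest in GFP osteogenic libraries and higher in replicate 1 of each growth group. It was 2.11-fold higher in GFP osteogenic than in GFP growth libraries (log2 1.08 ± 0.31, limma adjusted p = 0.0281) and 2.50-fold lower in THOC5 osteogenic than in GFP osteogenic libraries (log2 -1.32 ± 0.31, adjusted p = 0.00958), and the first of these calls was lost in DESeq2. Among other genes of the list, the related factor Atf5 (log2 1.26 ± 0.21, limma adjusted p = 0.00161), the stress factor Nupr1 (log2 1.48 ± 0.29, adjusted p = 0.00368), the phosphatase subunit Ppp1r15a (log2 1.20 ± 0.19, adjusted p = 0.00106) and Nfe2l2, which encodes NRF2 (log2 0.54 ± 0.08, adjusted p = 7.95e-04) were higher in GFP osteogenic than in GFP growth libraries. ATF4 is regulated largely through translation, which these mRNA levels do not measure. In the THOC5 response no gene of the 7 lists passed except 1 higher gene of the ATF4 list. Calls of the other 6 lists also shrank on leaving out some libraries of the groups compared, as calls over all genes did. For the serine and glycine list, the 5 higher genes of the GFP response became 1 or 2 when GFP osteogenic replicate 1 or 2 was left out, and 2 or 0 when GFP growth replicate 1 or 2 was. For the purine list the 6 became 1 with GFP osteogenic replicate 1 left out, and 2 or 3 when GFP growth replicate 1 or 2 was. For the transsulfuration list the 6 stayed at 4 or more. Scaling libraries to their totals moved the median of all genes to log2 0.13 for GFP osteogenic over GFP growth libraries and to -0.16 for THOC5 osteogenic over GFP osteogenic libraries. With this scaling the medians of the serine and glycine list changed sign in both comparisons, and the directions of the 10 enzymes did not.

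**Figure D4:**
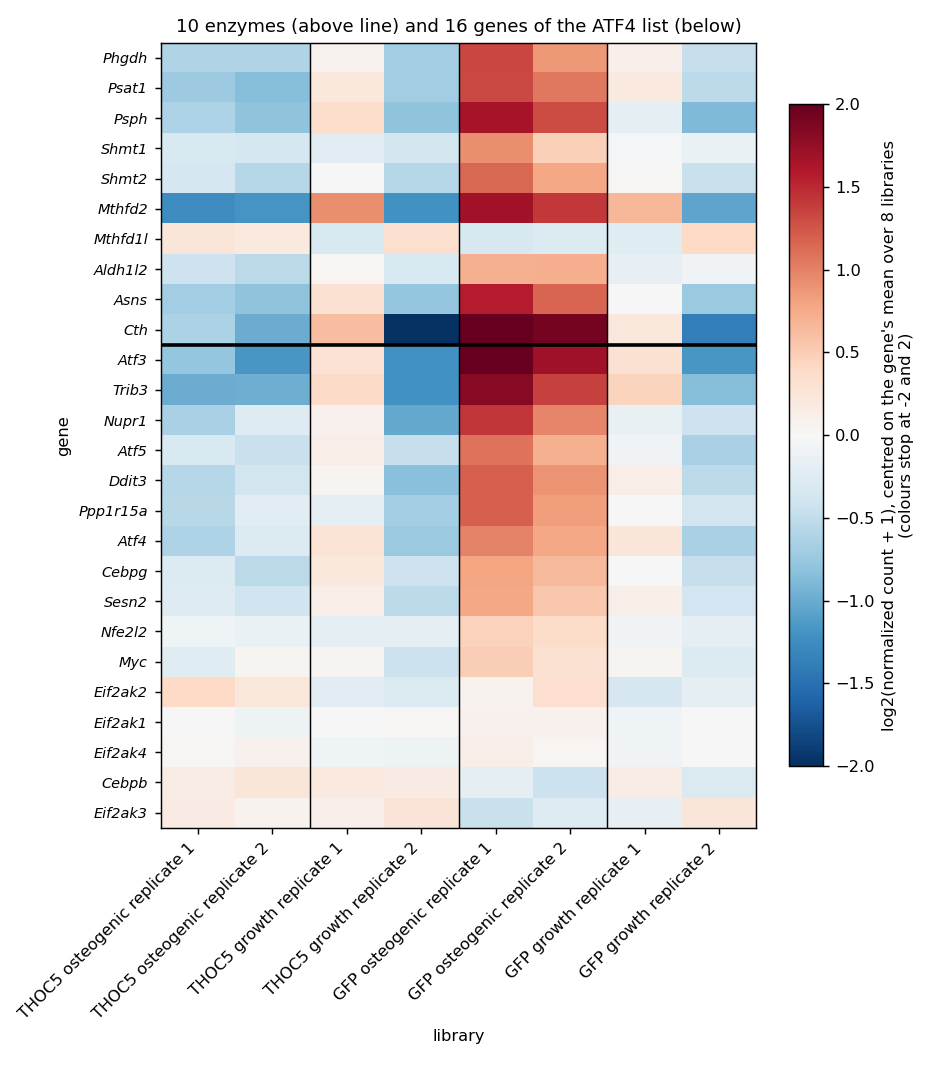
Centred log2(normalized count + 1) of the 10 enzymes, above the line, and the 16 genes of the ATF4 list, below it, in the 8 libraries. Red is above and blue below the gene's mean. The GFP osteogenic columns are red for 9 of the 10 enzymes, and Mthfd1l is blue there.

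The authors' deposited table has 8 of the 10 enzymes past an adjusted p of 0.05 for GFP osteogenic against GFP growth libraries and 9 for THOC5 osteogenic against GFP osteogenic libraries, with 0 for the other 2 comparisons. Of its 27249 genes, 3798 pass in the first of these and 4182 in the second. For THOC5 osteogenic against THOC5 growth libraries 149 pass, and for THOC5 growth against GFP growth libraries 1. The authors' deposited table gives Asns a log2 change of -2.13 and Cth one of -2.94 for THOC5 osteogenic over GFP osteogenic libraries.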

How the data were processed

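Libraries were grouped by their titles, and columns were matched to samples through the labels' descriptions, which left 0 per-sample columns unused. The deposited signal is a gene's reads over a size factor for its library. Multiplying the authors' values by that factor gave whole reads for 100% of values within 1e-06 (largest distance 1.34e-09). The authors' deposited table also gives log2 fold changes, adjusted p-values and, as a score, standard errors and test statistics, per the file headers, and the last 2 were not used. FastQC, Bowtie2, MACS2, SAMtools and mm10 are named in the submitters' processing notes without roles. The sources used here do not name the counter or the annotation. The TruSeq kit named in the labels' protocols does not mark strand. RNA immunoprecipitation libraries were not analysed here.

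limma 3.58.1 (R 4.3.3, trend option) was fitted to log2(normalized count + 1) for 22575 genes that reached 1 in 2 or more libraries. A single fit over the 8 libraries and 4 groups, with 4 residual degrees of freedom, gave 5 contrasts, each with Benjamini-Hochberg adjustment over all tested genes and a threshold of 0.05. Folds in the text are 2 to the power of these log2 changes. Adding 1 pulls ratios of low values towards 0 on the log2 scale, yet the changes were not always smaller than in the count models. For Cth, the lowest enzyme, the GFP response was 2.65 in limma, 2.46 in edgeR and 2.48 in DESeq2. For THOC5 osteogenic over GFP osteogenic libraries Cth had -2.88 in limma and -2.94 in edgeR and DESeq2. The planned design allowed for counts or normalized values, and the normalized values were tested. edgeR 4.0.16 and DESeq2 1.42.0 on recovered reads, other pseudocounts, filters and scalings, a replicate block, the 4 compared libraries alone and leaving out libraries were alternatives. Leaving out both growth replicates 1, or both growth replicates 2, was chosen after seeing the data. The fit was tested on simulated data in which every gene had the same setting of spread, unlike these libraries. A condition on finding 2-fold changes was dropped there because the interaction missed many of them, so its power for such changes is low. Replicates differed beyond sampling noise (chi-square per degree of freedom 2.74 to 8.50).

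Members and lists were chosen with earlier results of these data known. The text names all 10 enzymes, up to 4 genes per list with the smallest p past the threshold, and the 5 genes most like the enzymes. Atf4 was named outside this rule. Some genes that the rule names are not reported here. Coordinates and exon lengths are from GENCODE M21 on GRCm38, and promoter sequences from RefSeq on GRCm38.p6.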

Additional observations from a re-analysis of the deposited data

Results flagged for a closer look

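For 7 enzymes the response to osteogenic medium differed between THOC5 and GFP cells by the interaction term of the limma fit, with 2 libraries per group. A negative term passed for 3.92% of all genes. The response of THOC5 cells minus that of GFP cells was log2 -2.49 for Psph, -2.26 for Asns, -1.91 for Psat1, -1.56 for Phgdh, -1.33 for Shmt2, -1.18 for Aldh1l2 and -0.81 for Shmt1. The limma adjusted p-values lay between 0.00152 for Aldh1l2 and 0.0369 for Shmt1. For each of the 7, both GFP osteogenic libraries stood above both GFP growth libraries, as for 27.7% of all genes. In THOC5 cells the medium groups overlapped for 5 of the 7. Psat1 and Aldh1l2 were lower there in osteogenic medium without overlap, as were 19.7% of all genes. The 7 calls were lost without either GFP growth library, as were most or all interaction calls over all genes.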

How the results depend on the processing

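No enzyme changed sign in the GFP response, in THOC5 against GFP osteogenic libraries or in the interaction under any alternative. Of 630 single log2 changes 104 lost the call and 20 gained it. The 630 also cover Mthfd2 and Aldh1l2 in the response of THOC5 cells, where neither had a call to lose. The GFP response called 8 enzymes, and the median log2 change of the 10 ran from 0.96 to 1.63 on leaving out each library in turn. Enzyme calls fell in several of those fits, and calls over all genes fell in each. All calls of the GFP response, over all genes as over the enzymes, were lost without both growth replicates 1 or both growth replicates 2. The interaction called 7 enzymes, and 1 with every gene above 0 kept, where 4.12% of all genes passed in either direction against 9.22% in the main fit. Its median ran from -2.15 to -1.32 on leaving out each library, with fewer enzyme calls in several of those fits and fewer calls over all genes in each. Its calls were likewise all lost, over all genes too, without both growth replicates 1 or both growth replicates 2. THOC5 against GFP osteogenic libraries called 7 to 9 on leaving out 1 library. Such fits leave a lone library, assumed to vary like the other groups, and the cause of the lost calls was not tested. Over all genes, deviations of same-numbered libraries correlated at -0.02 to 0.05, while 8 or 9 of the 10 enzymes were higher in replicate 1 in each group. With the replicate number as a block, the calls were 9 in the GFP response, 10 in THOC5 against GFP osteogenic libraries, 9 in the interaction and 0 in the remaining comparisons. In that fit 20.9% of all genes passed in the GFP response, 21.9% between osteogenic groups and 9.91% in the interaction, in either direction. The share was 0.545% in the THOC5 response and 0.00443% between growth groups. In the main fit the calls over all genes were 4698 in the GFP response, 122 in that of THOC5 cells, 1 between growth groups, 4963 between osteogenic groups and 2082 in the interaction. They were 2293, 0, 0 and 3030 with only the 4 libraries compared. With every gene above 0 kept they were 4013, 37, 0, 4239 and 1122. With library totals the GFP response split into 3720 higher and 1686 lower against 2314 and 2384, and the osteogenic groups into 1662 higher and 4063 lower against 2550 and 2413. On leaving out 1 library the counts ranged over 2067 to 4496, 8 to 106, 0 to 1, 1987 to 4753 and 0 to 1751, in that order, and 0 genes passed in either medium response without both growth replicates 1. The medians of the 10 enzymes in the THOC5 response spanned -0.84 to 0.03 on leaving out 1 library. Depth limits Cth most, with 8 reads in 1 library, and a count of 0 reads would allow 3.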

Other observations

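Mat2a, which encodes a subunit of the enzyme that makes S-adenosylmethionine outside the liver, was listed at 0 to 1.82 normalized counts in every library, so the methionine list holds no usable value for it.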
